A study of Talpa occidentalis with 24 samples.

Results

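The olfactory receptor gene models of the Iberian mole, Talpa occidentalis, were taken from the gene annotation of the assembly talOcc3 that accompanies a chromatin study of mole gonads. A model was a member when its name, without the suffix that numbers further copies, consisted of OR, a number, letters and a number, with or without a final P. The rule found 893 of 23336 models, or 3.83% (Wilson 95% interval 3.59% to 4.08%), under 267 of 18052 names. The 24 mole samples of the study described here were chromatin immunoprecipitation libraries from wild-type animals at postnatal day 7. Females of this species carry ovotestes, and the 3 tissues sampled were the ovarian and testicular portions of that gonad and the testis. Each was assayed for 4 histone marks (H3K4me3, H3K4me1, H3K27ac and H3K27me3) with 2 replicates per mark. The chromatin states of these tissues lie on another assembly, talOcc4, and were not joined to the models, so the results below are about gene models and not about their activity in the gonad.

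Olfactory receptors are G protein-coupled receptors that olfactory sensory neurons use to detect odorants. A mature neuron typically expresses 1 receptor gene, from 1 allele, and signals through the G protein subunit GNAL, the cyclase ADCY3 and a cyclic nucleotide-gated channel. The coding sequence of a receptor usually lies in a single exon, preceded by non-coding exons, and the genes form tandem arrays that gain and lose copies quickly in mammals. Class I receptors (families OR51, OR52, OR55 and OR56) are related to those of fish, and class II holds all other families.

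A name in this annotation is that of the target gene a model was assigned to. Several models can carry 1 name, and a shared name does not show which human gene a mole gene descends from. The annotation describes 1 genome and has no replicates, so no test was run. Shares are given with Wilson 95% intervals, which cover counting error only, beside the same share over the other models. The intervals treat models as independent, which neighbouring copies need not be, so whether intervals overlap is a description and not a test. Exons here are coding exons, positions count from 1 on talOcc3, and a scaffold is given by its talOcc3 number.

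Class II made up 848 of the models (94.96%) and class I 45 (5.04%). The 4 families with most models were OR2 with 137 models, OR4 with 134, OR5 with 104 and OR8 with 82, which together with OR7 and OR14 (80 each), OR6 (68), OR10 (62), OR1 (51) and the tied OR11 and OR52 (24 each) are the leading families. The remaining families were small, from 17 models of OR51 to 3 of OR3. No model of OR55 was found under the naming rule. Families with more names mostly had more models, and OR14 and OR7 departed most from this. OR2 and OR4 were spread over 46 and 45 names, with 2.98 models per name in each. OR14 had 4 names and 20 models per name, and OR7 had 7 names and 11.4 models per name. Names with the final P that marks a pseudogene accounted for 10 models, 5 of them OR1F2P, 2 OR10V2P and 1 each OR5E1P, OR3A4P and OR2A20P. These names were singled out after their values had been seen.

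**Figure D1:**
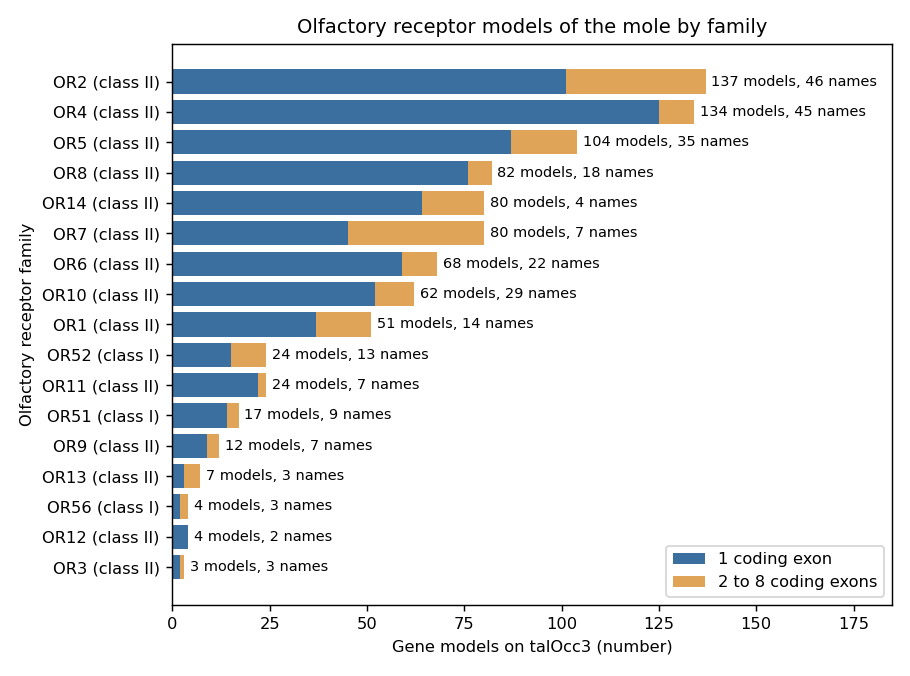
Number of olfactory receptor models on talOcc3 in each family, split into models with 1 coding exon (blue) and with 2 to 8 (orange), with the number of names at the end of each bar. OR2 and OR4 lead with 137 and 134 models; OR14 and OR7 reach 80 models with only 4 and 7 names.

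Most receptor names stood for several models. Of the 267 names, 152 (56.9%, 50.9% to 62.7%) had more than 1 model, against 2210 of 17785 other names (12.4%, 11.95% to 12.92%). The other 115 receptor names had 1 model each, 58 had 2 and 28 had 3. At the upper end, 14 names had over 10 models. The 10 names with most models held 237 models, 26.5% of all.

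OR14A16 was the most frequent name, with 55 models, and only 7 names of the whole annotation had more. The names above it included the mitochondrial genes COX1 with 80 models, ND1 with 74 and CYTB with 71. The OR14A16 models were also the most scattered. They lay in 35 separate places (a place being a cluster or a lone model) on 33 scaffolds, and 37 of them were on scaffolds whose last model ends before 100 kb. The largest group of them in 1 place had 6 models. Only 26 of the 55 reached 900 coding bases, about the length of a whole receptor, and their median was 835 bases.

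OR7A10 followed with 41 models in 9 places on 5 scaffolds, none of them on a scaffold under 100 kb. All 41 reached 900 coding bases. OR6C2 had 34 models, and here all 34 lay in 1 cluster on scaffold 34, 11 on the plus strand. OR8D4 had 18 models, 14 of them in 1 cluster on scaffold 14, and its models were the most uniform of the leading names: all 18 had a single exon, of 930 to 939 bases. OR2L13 had 17 models, 14 in a cluster on scaffold 3. OR2A2 had 16, in 1 cluster on scaffold 5 and all on the plus strand. OR10AG1 had 15 models, 13 of them in the largest cluster on scaffold 18, and OR1J4 had 14 in 1 cluster on scaffold 15. OR7A5 had 14 models in 5 places. OR7D4, named for a human receptor for the steroid androstenone, had 13 in 3 places. Over all 152 names with several models, all models of the name lay in 1 cluster for 84 (55.3%), and most of them did for 120 (78.9%).

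**Figure D2:**
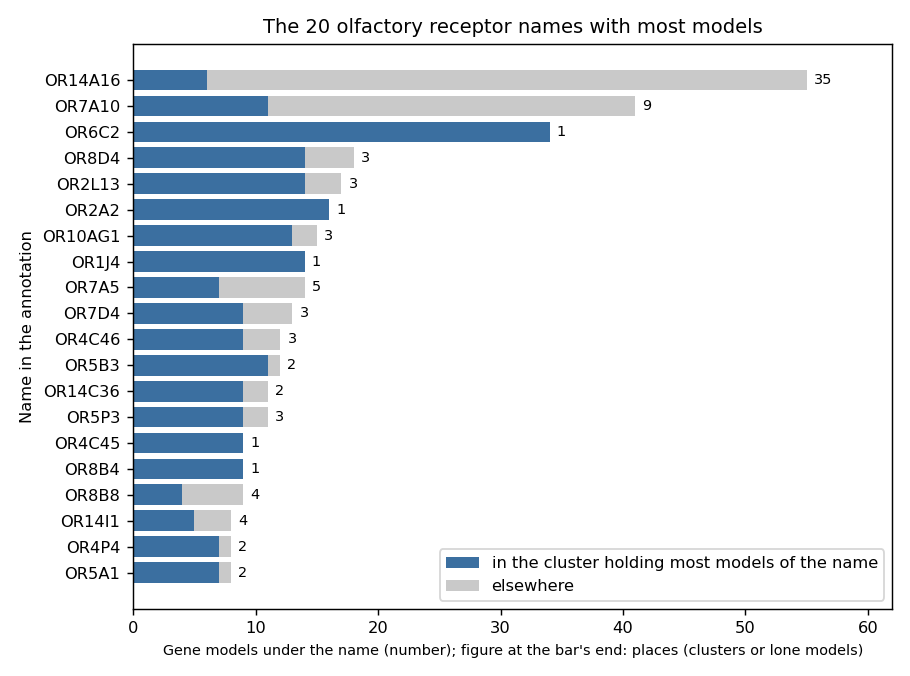
Models under each of the 20 most frequent olfactory receptor names; blue marks the models in the cluster that holds most of them, grey those elsewhere, and the number at the end of each bar counts the separate places. OR6C2, OR2A2 and OR1J4 lie in 1 place each, while OR14A16 has 6 of its 55 models in its largest place and 35 places in all.

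The single coding exon typical of the family was found in 717 of 893 models (80.3%, 77.6% to 82.8%), against 5054 of 22443 other models (22.5%, 22.0% to 23.1%). There were 2 exons in 119 models, 3 in 36, 4 in 8, 5 in 4, 6 in 2, 7 in 3 and 8 in 4. The share differed between families. OR4 had 93.3% single-exon models (125 of 134), OR8 92.7% and OR11 91.7%, whereas OR7 had 56.3% (45 of 80) and OR52 62.5% (15 of 24). The interval was 87.7% to 96.4% for OR4 and 45.3% to 66.6% for OR7. The OR7 models with several exons included all OR7A10 models of 2 clusters on scaffold 14, 11 in one and 8 in the other. In class I the share was 68.9% (31 of 45, 54.3% to 80.5%) and in class II 80.9% (78.1% to 83.4%), intervals that overlap.

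How a model was made moved with this share. The annotation gives 3 origins, ALN, exonerate and EVM. Of the receptor models, 582 were of origin ALN, with 76.8% single-exon, and 308 of origin exonerate, with 87.7% single-exon. EVM, the origin of 14978 other models, of which 74 had a single exon, gave 3 receptor models (2 of OR10AG1 and 1 of OR52H1, named after their values had been seen), all with several exons. Among other models of origin exonerate, 79.0% (4450 of 5636) had 1 exon too, and among those of origin ALN 29.0% (530 of 1829). The gap to other models was therefore much smaller within exonerate than within ALN.

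The length of the receptors was narrow. The median coding length was 938 bases, with quartiles of 930 and 954, against a median of 1045 and quartiles of 582 and 1779 in other models. Among single-exon receptor models, 620 of 717 (86.5%, 83.8% to 88.8%) had 900 to 1000 bases, and only 294 of 5054 other single-exon models (5.82%) did, which had a median of 516 bases. The coding length was a multiple of 3 in 798 receptor models (89.4%) and in 87.7% of other models. Models with 1 exon, at least 900 bases and a multiple of 3 numbered 592 (66.3% of all receptor models). No sequence was read, so whether these frames are open was not determined.

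Short models were concentrated in 1 family and on short scaffolds. Fewer than 600 coding bases were annotated in 55 models (6.16%), against 25.9% of other models. Of the 55, 26 were OR14 (47.3%), 27 lay on scaffolds under 100 kb (49.1%) and 40 were of origin exonerate (72.7%). Over all receptor models these shares were 8.96%, 9.18% and 34.5%. On scaffolds under 100 kb 38 of 82 models (46.3%, 36.0% to 57.1%) were shorter than 900 bases. On scaffolds reaching 1 Mb 63 of 798 were (7.89%, 6.22% to 9.97%). Within OR14, 27 of 34 models on scaffolds reaching 1 Mb and 15 of 37 on scaffolds under 100 kb had 900 bases or more.

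**Figure D3:**
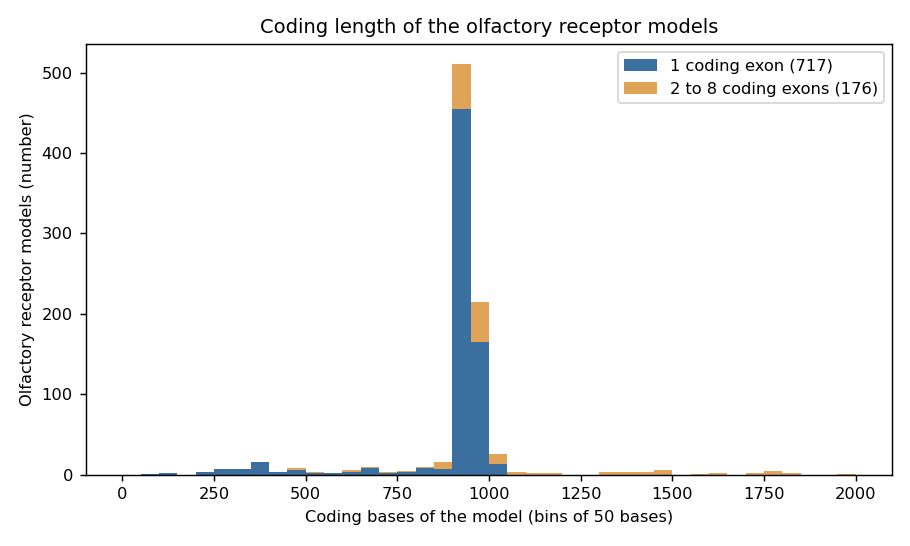
Distribution of coding length over the 893 models, in bins of 50 bases, with single-exon models in blue and models with 2 to 8 exons in orange stacked on them. Most of both kinds fall between 900 and 1000 bases, and a second, small group of multi-exon models lies to their right, where the 9 multi-exon models of OR1J4 (1431 to 1470 bases) are found.

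Among the 176 models with several exons, most still contained a receptor-sized exon. An exon of 800 or more bases was present in 126 (71.6%, 64.5% to 77.7%), as the first exon in 57, the last in 49 and an inner one in 20. The median length outside that exon was 49.5 bases. Their introns, 287 in all, had a median of 2954 bases. Of these, 21 were under 100 bases and 68 (23.7%) over 10 kb.

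Some names repeated 1 arrangement of exons. In OR7A10, 23 of 41 models had several exons, 13 of these began with an exon of 10 bases, and the long exon of those 13 had 898 to 926 bases with a median of 925. All 13 lay on scaffold 14, in clusters holding 11 and 8 OR7A10 models, every one with several exons. The 18 single-exon models of OR7A10 all lay on other scaffolds, so this arrangement was local and not a trait of the name. In OR1J4, 9 of 14 models had several exons, 7 with 2 and 2 with 3. Each of the 9 had a second exon of 477 to 507 bases (median 497) beside a long exon of 934 to 963 bases, and in 8 of them the long exon came last. The 5 single-exon models of OR1J4 had 930 to 957 bases, close to the long exon alone.

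Models with the most exons included 4 with 8 exons, namely 1 each of OR13A1, OR14A16, OR14C36 and OR52H1. Another 3, of OR13A1, OR14C36 and OR2C1, had 7. Their longest exons ranged from 195 bases in the 8-exon model of OR14C36 to 987 in OR52H1, which also had the longest coding sequence of all receptor models, 1959 bases. Long introns made some models wide: 41 spanned more than 20 kb. The widest, OR52K2 on scaffold 18, reached from 41658796 to 42123581, 464786 bases with 5 exons, and 8 other olfactory receptor models lay within it.

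Most receptor models had another receptor nearby. When models whose facing ends lie at most 100 kb apart on 1 scaffold were joined, 825 of 893 (92.4%, 90.5% to 93.9%) fell into 68 clusters of 2 or more, and 68 models stood alone. The same rule applied to the other 22443 models, which are far more numerous, placed 88.4% (87.9% to 88.8%) within 100 kb of another such model. Clusters of 10 or more numbered 23 and held 665 models (74.5%), and the 10 largest held 443 (49.6%). The models lay on 98 scaffolds, of which 29 reach 1 Mb. Scaffold 18 alone carried 275 of them (30.8%), which was 26.6% of all models on that scaffold. Neighbouring receptors that do not overlap were separated by a median of 10237 bases, with quartiles of 6603 and 19430. Neighbouring other models within 100 kb had a median of 12099 bases and wider quartiles of 3802 and 30928.

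The largest cluster lay on scaffold 18 from 9204446 to 10872240 and held 137 models of 45 names over 1667.8 kb. Its size rests on the joining rule: the largest cluster had 50 models when no other model was allowed between neighbours, and 92 when models spanning more than 20 kb were left out. It combined 6 families in runs: 68 models of OR4, 29 of OR5, 20 of OR8, 14 of OR10, 5 of OR9 and 1 of OR2. LRRC55 was the nearest model of another name on its left and PTPRJ, a receptor tyrosine phosphatase, on its right. This scaffold carried further large clusters at lower coordinates. One, from 8118007 to 8627992, had 30 models (22 of OR5) between LPXN and CTNND1, the gene of p120 catenin. The other, from 7349192 to 7753672, had 24 (20 of OR5 and 4 of OR4) between OSBP, an oxysterol-binding protein, and MPEG1. This cluster was joined through the wide model of OR5AR1, which spans 183509 bases.

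Scaffold 34 carried the densest of the 10 largest clusters, with 52 models from 14041248 to 14579192, or 96.7 per Mb. Of these 47 were OR6, and it lay between NEUROD4, a neuronal transcription factor, and ITGA7, an integrin. On scaffold 14, from 21540605 to 22499203, 49 models (44 of OR8) lay between ZNF202 and PANX3. On scaffold 16, 41 models (40 of OR4) lay from 10083 to 805625, between the start of the scaffold and LOXL1. On scaffold 3, from 43267258 to 44218291, 32 models (23 of OR2 and 9 of OR14) lay between RPS24 and LIN28B. On scaffold 15, from 47098904 to 47564775, 28 models (27 of OR1) lay between PTGS1, a cyclooxygenase, and PDCL. On scaffold 5, from 68220292 to 68491930, 24 models (23 of OR2) lay between TCAF1 and ARHGEF5. The cluster on scaffold 18 from 40983209 to 41504891, with 26 models, is the class I cluster described further on.

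Clusters tended to be of 1 family but were often not pure. One family made up all models in 39 of the 68 clusters, but in only 2 of the 23 clusters of 10 or more. Both were OR7 clusters, with 20 models on scaffold 14 from 3932950 and 14 on scaffold 5 from 2214407 (singled out after their values had been seen). At least 90% of 1 family was reached in 6 of the 23. Between neighbours, 656 of 757 pairs (86.7%, 84.1% to 88.9%) were of the same family, 516 (68.2%) of the same subfamily and 355 (46.9%) of the same name.

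**Figure D4:**
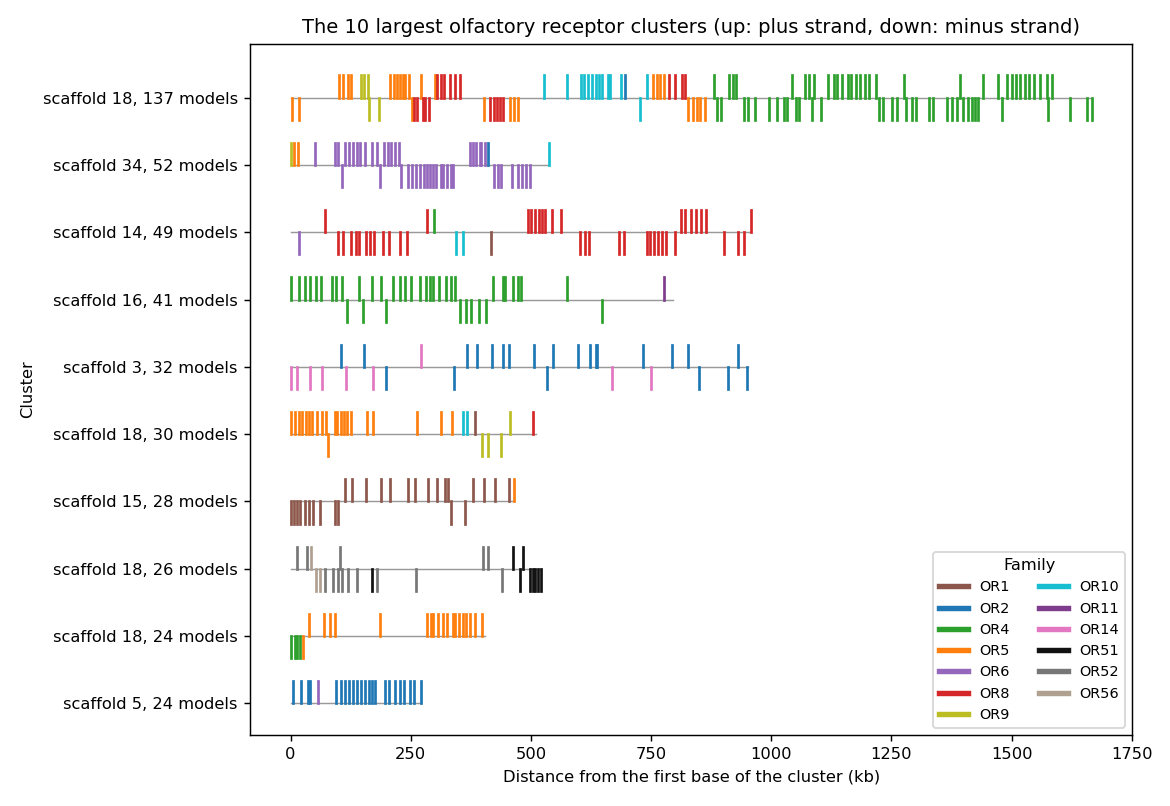
Positions of the models in the 10 largest clusters, as distance in kb from the first base of each cluster; a tick up is a model on the plus strand, a tick down one on the minus strand, and colours are families. Families and strands form runs, the cluster of 24 models on scaffold 5 has only upward ticks, and the cluster of 32 on scaffold 3 has the smallest share of neighbours on the same strand (48.4%).

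Unnamed models stood inside the arrays. The annotation holds 1743 models with only an alignment label in place of a name, of which 43 lay inside receptor clusters. Of these 43, 40 had a single exon and 25 (58.1%, 43.3% to 71.6%) had a single exon of 900 to 1000 bases. Outside the clusters 85 of 1700 unnamed models did (5.00%, 4.06% to 6.14%). The largest cluster contained 14 of them, 10 with such an exon. The naming rule did not count these models, and whether they encode receptors was not determined.

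Class I models lay apart from class II models. Of the 45 models, 42 lay in 2 clusters next to each other on scaffold 18, together from 40983209 to 42214563 (1231.4 kb), with 23 models of OR52, 16 of OR51, 3 of OR56 and no class II model. No cluster of the genome contained both classes. The first cluster held 26 models between GVINP1 and HBE1, the second 16, and a gap of 127.9 kb separated them. Inside that gap lay HBE1, an embryonic beta-like globin, from 41552901 to 41555593, and 2 models of the delta-globin name HBD, from 41567618 to 41568821 and from 41575692 to 41576912, all on the plus strand. These globin models thus had class I receptors on both sides. Both clusters rest on wide models. With models spanning more than 20 kb left out, the first has no receptor between 41168323 and 41378626. The second then has none between 41648384 and 41820226 or between 41821183 and 41953460. Each of these gaps exceeds 100 kb, so both clusters would divide.

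The other 3 class I models lay elsewhere. OR56B4 and OR52B2 overlapped on opposite strands on scaffold 85, whose last model ends at 145247. That scaffold also carries CNGA4, a subunit of the olfactory cyclic nucleotide-gated channel, from 90350 to 95701, and CCKBR. A single model of OR51G2, with 478 coding bases, stood alone on scaffold 18 at 18132693.

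Neighbouring receptors mostly pointed the same way. Of 757 neighbouring pairs within clusters, 590 were on the same strand (77.9%, 74.9% to 80.8%), 82 converged and 85 diverged. All but 1 of these pairs lay within 100 kb; OR4F29 and OR11G2 on scaffold 16, farther apart, were joined through the wide model of OR4F16. Among 17147 neighbouring pairs of other models within 100 kb, 8856 (51.6%, 50.9% to 52.4%) were on the same strand. Over all scaffolds, 482 of 893 receptor models (54.0%, 50.7% to 57.2%) were on the plus strand, against 49.7% of other models. This is a different measure and does not bear on the orientation of neighbours.

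The share on the same strand was highest for neighbours of 1 name and lowest for neighbours of different families. It was 92.4% (328 of 355, 89.2% to 94.7%) for pairs of 1 name and 71.4% (115 of 161, 64.0% to 77.8%) for different names of 1 subfamily. For different subfamilies of 1 family it was 67.9% (95 of 140, 59.73% to 75.03%), and for different families 51.5% (52 of 101, 41.9% to 61.0%). The interval for different subfamilies overlapped both that for 1 subfamily and that for different families. The interval for different families included the 51.6% of other models. Pairs of 1 name among the other models reached 93.3% (1286 of 1379, 91.8% to 94.5%), and this interval overlapped that of receptors of 1 name. The share also differed with distance: pairs under 10 kb apart were on the same strand in 84.4% (319 of 378, 80.4% to 87.7%) and pairs at 10 kb or more in 71.5% (271 of 379, 66.8% to 75.8%). The pairs under 10 kb apart include the 15 that overlap, none of which was on 1 strand.

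**Figure D5:**
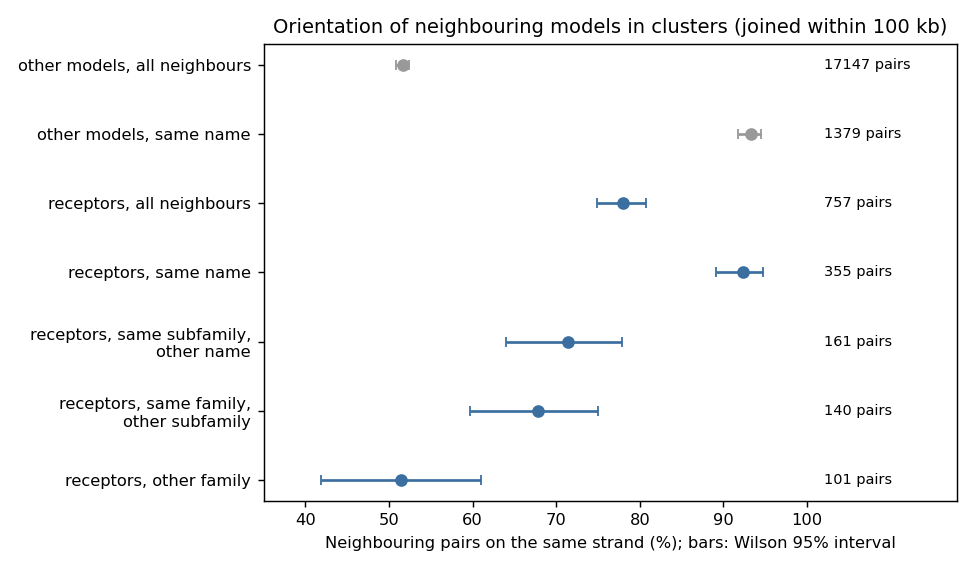
Percent of neighbouring pairs (receptors in clusters, other models within 100 kb) that lie on the same strand, with Wilson 95% intervals and the number of pairs; receptors in blue, other models in grey. The share falls from 92.4% for receptors of 1 name to 51.5% for receptors of different families, the level of all other neighbours (51.6%).

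Across the 23 clusters of 10 or more, the share on the same strand ran from 48.4% to 100%, with a median of 76.2%, and 22 of them lay above the 51.6% of other pairs. The exception was the cluster of OR2 and OR14 on scaffold 3, where 15 of 31 pairs shared a strand. In 2 clusters all models were on 1 strand: the 24 models on scaffold 5 were all on the plus strand, and the 20 models of OR7 on scaffold 14 all on the minus strand. In class I 28 of 41 pairs were on the same strand (68.3%, 53.0% to 80.4%) and in class II 562 of 716 (78.5%, 75.3% to 81.3%), with overlapping intervals. Overlap was seen in 15 of the 757 neighbouring pairs, and none of these was on 1 strand (the upper limit of the interval is 20.4%). Only models next to each other by start were compared. Further models inside a wide one, such as most of the 8 within OR52K2, are therefore not in this count. Examples, chosen after their values had been seen, are OR4F16 with OR4F29 over 936 bases and OR2W1 with OR2B11 over 939, about the length of a whole receptor.

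Most of the 68 models without a receptor neighbour lay on short scaffolds, where the distance to a neighbour is not fully seen. Of these, 54 (79.4%) were on scaffolds under 100 kb, and for 50 of the 54 the receptor was the only model on its scaffold. OR14 accounted for 26 of the 68, OR2 for 12, OR5 for 8 and OR11 for 7. The other 14 lay on scaffolds reaching 1 Mb. The 10 lone models with the longest coding sequence included 4 on such scaffolds: OR2W3 with 1347 bases in 6 exons on scaffold 54, and single-exon models of OR6S1 (993 bases, scaffold 6), OR2L13 (966 bases, scaffold 3) and OR10AC1 (957 bases, scaffold 5). On short scaffolds were 2 models with 2 exons, of OR14A16 with 1190 bases and OR5A2 with 976. Also there were single-exon models of OR14A16 (975 bases), OR5H2 (972), OR11L1 (967) and OR5W2 (964).

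Most names of receptors with a known ligand or a known site outside the nose were found. Only names were matched, so whether the mole has these receptors themselves was not determined. Of 24 such names, 20 had a model, with 75 models in all, and 13 of the 20 had several. Of the 75 models 60 (80.0%) had a single exon and 68 (90.7%) at least 900 coding bases, close to the 80.3% and 88.2% of all receptor models. OR7D4 had most, with 13 models. OR5AN1, named for a human receptor for musk compounds, and OR5A1, for one that binds beta-ionone, had 8 each. All 8 models of OR5AN1 and 7 of OR5A1 lay in 1 cluster on scaffold 18. The deposited alignment score ran from 119 to 1081 within OR5A1, with a median of 264. Within OR5AN1 it ran from 406 to 983, with a median of 478.5. These scores were singled out after their values had been seen, and what their spread means was not tested. OR7A17 had 7 models. OR1D2, known from human sperm, and OR1A1 had 6 each, of which 4 and 5 lay in 1 cluster on scaffold 25. OR2W1 and OR2T11 had 5 each. There were 2 models each of OR2AT4, which is known from human skin cells, OR2J3, OR4D1, OR51E2, known from prostate, and OR56A4. A single model each was found for OR2AG1, OR4E1, OR6A2, OR8D1, OR10G4, OR11A1 and OR11H7. The OR11H7 model had 4 exons and 1041 coding bases. No model carried the names OR1G1, OR10G7, OR51E1 or OR51L1 in the table used here.

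Of 28 names of olfactory signalling and receptor choice, 26 had a model, and the 26 had 30 models together. Exactly 1 model was found for 23 of the 26 (88.5%, 71.0% to 96.0%), close to the 87.6% of all names other than receptors. GNAL had 1 model with 12 exons, CNGA2, the main channel subunit, 1 with 5 exons, ANO2, a calcium-activated chloride channel, 1 with 24, and RTP1 and RTP2, which bring receptors to the cell surface, 1 each with 2. LHX2, LDB1 and EBF1 to EBF4, transcription regulators tied to receptor choice and neuron maturation, had 1 model each. ADCY3 had 3 models, and CNGB1 and PDE1C 2 each. The only model of GNB1 had a single exon of 396 coding bases. OMP, the marker protein of mature olfactory neurons, and GNG13 had no model of that name. OMP is a symbol of the RefSeq gene table of the mole.

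Counted by name pattern, other chemoreceptor families had far fewer models than the olfactory receptors. Genes without such a name are missed, and a matching name does not show that a model is a chemoreceptor. The bitter taste receptors TAS2R had 21 models under 16 names, of which 15 had a single exon, and 15 of their 16 neighbouring pairs were on the same strand. The vomeronasal receptors VN1R had 10 models, all with a single exon, and no model was named VMN2R or FPR. The trace amine receptors TAAR had 7 models, all in 1 cluster, with 4 of 6 pairs on the same strand. The sweet and umami receptors TAS1R had 2 models, MS4A had 7 in 1 cluster, and TRPC2, the channel of vomeronasal neurons, had 1 model with 12 exons.

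A second annotation, the RefSeq table of the later assembly MPIMG_talOcc4v2.1, used none of the 267 receptor names as a symbol, so models and RefSeq genes were set side by side only through their neighbours. Between the flanking genes of the largest cluster, LRRC55 and PTPRJ, RefSeq had 191 protein-coding genes without a gene name and 18 pseudogenes, against 137 receptor models. NEUROD4 and ITGA7 enclosed 68 such protein-coding genes against 52 models, ZNF202 and PANX3 70 against 49, and LPXN and CTNND1 55 against 30. RefSeq had more entries than there were named models in these 4 intervals, and which of the unnamed genes are receptors was not determined. For the other 6 of the 10 largest clusters no such count was available, or, for PTGS1 and PDCL, the interval enclosed 158 named genes and was not comparable.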

How the data were processed

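The gene models were used as deposited by the authors on talOcc3: gene, mRNA and coding rows, in which the authors give positions and, for mRNA rows, an alignment score. The unit of this deposited score is not given in the sources used here; it served only to choose the model described for a listed name, and the highest-scoring model had no copy suffix for 266 of 267 names. How the models were made is not given there either, beyond the origin in the second column, per the file headers and values. STAR 2.6.1d and the mouse build mm9 are listed, per the submitters' processing notes, and neither was used for these counts. The chromatin states were not used, since coordinates were not carried between assemblies, and sequencing depth does not bear on these counts.

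Each gene row was joined to its mRNA by parent, scaffold and strand, and coding rows were counted as exons. Neighbours at most 100 kb apart were joined into clusters of 2 or more, whatever lay between them. Wilson 95% intervals were computed with SciPy 1.17.1 in Python 3.11.15, and figures drawn with matplotlib 3.10.9. The functions were tested on simulated annotations. Named were the 10 largest clusters with their flanks, the 10 names and 10 families with most models (ties kept), the 5 models with most exons (ties kept), 10 lone models, and 3 gene lists. Members and lists were chosen with earlier results of these data known. The planned protein motifs and identities were not run, as no protein sequence was used here. RefSeq neighbours were counted by the order of genes in that table.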

Additional observations from a re-analysis of the deposited data

How the results depend on the processing

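Of 38 values recomputed under other choices, 32 stayed within the limit set for them (1.5 times for a count, the 95% interval for a share) and 6 moved. The 32 include values that carry no information on robustness. Keeping 1 model per overlapping locus could not change any of the 7 results, because no receptor models overlapped on 1 strand. Taking every name that starts with OR and a digit selected the same number of models, 893. Requiring neighbouring receptors to be adjacent, with no other model between them, gave 109 clusters in place of 68 and put 90.15% of models in clusters in place of 92.4%. It also reduced the largest cluster from 137 models to 50, from 9305834 to 9870106 on scaffold 18, an alternative added after seeing the data; the unnamed models inside the arrays separate neighbours under this rule. A distance of 50 kb gave 90.03% in clusters, and scaffolds reaching 1 Mb alone gave 98.25%. Pairs of 1 family only were on the same strand in 82.01%, against 77.9% of all pairs. Leaving out the 41 models that span over 20 kb, also added later, gave a largest cluster of 92 models, just inside that limit, 70 clusters and 79.58% of pairs on the same strand. No paired analysis was possible because the gene models come from 1 annotation and belong to no replicate. Leaving out replicates and depth do not apply. The annotation's naming and the breaks between scaffolds limit every count: receptors without a name of this form are missed, and copies on short scaffolds cannot be placed beside their neighbours.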
